A study of Mus musculus with 18 samples.

Results

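Mouse cells that had received small interfering RNA (siRNA) against CYP1B1 were set against cells that had received scrambled siRNA, with both exposed to the estrogen metabolite 16aOHE. Each group held 3 RNA sequencing libraries. The siCYP1B1 group under 16aOHE got siRNA against CYP1B1 and then 1 uM 16aOHE, and the scrambled group under 16aOHE got the scrambled siRNA and the same dose. Cells without transfection are not among the groups, so what siCYP1B1 did and what the scrambled siRNA did cannot be told apart. The sample labels call the cells pulmonary microvascular endothelial cells, while the title of the series names smooth muscle cells, and neither gives a strain or an age. The same pair of siRNAs was also measured in vehicle and under 1 uM E2 (estradiol), in 3 libraries each. These 4 groups serve below to show whether a difference was also found without 16aOHE. They also enter the model fitted to all 18 libraries, and so contribute to the estimate of spread behind the p-values under 16aOHE. Per the labels' protocols, estrogen was added 24 hours after lipid transfection and left for 24 hours in 5% serum. The deposited values are CPM, a gene's reads scaled to the same total in every library. Described here are the 11827 of 15288 genes in the table whose mean reached 1 CPM across the 6 libraries under 16aOHE. Just inside that limit stood Adam11 (mean 1.00 CPM), Slc7a7 and Rplp2, and just outside it Exd1, BC065397 and Jazf1 (0.998 CPM).

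CYP1B1 is a cytochrome P450 enzyme of the endoplasmic reticulum that hydroxylates estradiol and many aromatic compounds, and its gene is a classical target of the aryl hydrocarbon receptor. 16aOHE is the usual short name of 16-alpha-hydroxyestrone, a hydroxylated product of estrone that binds estrogen receptors. An siRNA guides an Argonaute protein to transcripts that pair with it along its length and leads to their cleavage. Pairing of its seed, a short stretch near its 5′ end, with a 3′ untranslated region (3′ UTR) can also lower a transcript, in the manner of a microRNA.

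At the estimated depth, 1 CPM stood for 14.1, 21.2 and 25.1 reads in the 3 siCYP1B1 libraries under 16aOHE, against 28.8, 38.5 and 23.4 reads in the 3 scrambled libraries under 16aOHE. The shallowest of them, siCYP1B1 replicate 1, also stood apart from the rest on the second principal component (score 14.1, the other 5 between -6.88 and 4.48), which held 25.3% of the variance. The first component held 44.6% and separated the 2 siRNAs, with scores of 6.52 to 12.4 in siCYP1B1 libraries and -12.1 to -7.94 in scrambled libraries. The labels do not state whether a group's 3 libraries were separate cultures, and the p-values below therefore cover only the spread among these samples, which could be technical.

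The labelled cell type was checked against its markers. Of 26 endothelial markers listed, 19 were in the table, and 10 of those averaged under 1 CPM over the 6 libraries under 16aOHE. Pecam1 averaged 0.0605 CPM in siCYP1B1 libraries and 0.0751 CPM in scrambled libraries, and Vwf 0.0315 and 0.0800 CPM in the same order of groups. These 2 classical endothelial genes were at or near 0, while other markers of the list were not, such as Cd34 and Flt1 (below), and the list summed to 237 to 261 CPM in siCYP1B1 libraries and to 325 to 337 CPM in scrambled libraries. The mesothelial and epithelial markers summed to 4342 to 4529 CPM in siCYP1B1 libraries and to 5551 to 5763 CPM in scrambled libraries. Myh11, which defines contractile smooth muscle, averaged 0.121 CPM in siCYP1B1 libraries and 0.0862 CPM in scrambled libraries. Of 14 smooth muscle markers listed, 12 were in the table, and 5 of those averaged under 1 CPM over the 6 libraries. Those 12 summed to 1179 to 1201 CPM in siCYP1B1 libraries and to 1228 to 1252 CPM in scrambled libraries. The fibroblast and pericyte markers summed to 4858 to 5054 CPM in siCYP1B1 libraries and to 6088 to 6495 CPM in scrambled libraries. The leukocyte gene Ptprc averaged 0.0448 CPM in siCYP1B1 libraries and 0.0348 CPM in scrambled libraries.

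The targeted gene was lowered by a small amount. Cyp1b1 (chromosome 17, 79706953 to 79715041, minus strand, mm10) had 88.7, 90.2 and 91.5 CPM in siCYP1B1 libraries, against 106, 108 and 105 CPM in scrambled libraries. The groups did not overlap, and every siCYP1B1 library lay below every scrambled one. The level was 15.2% lower with siCYP1B1 (log2 change -0.24, SE 0.0345, limma adjusted p = 5.84e-05). A 2-sided exact permutation test gave p = 0.1, the smallest that 20 arrangements of 3 against 3 libraries allow. Of the 1105 genes called lower in the same comparison, 647 (58.6%) had a larger fall than the targeted gene. Of the 11 tested enzymes of estrogen metabolism, Cyp1b1 and Hsd17b7 (-0.24) fell, and Hsd17b10 (0.29) and Hsd17b4 (0.14) rose. The receptor gene Ahr had 25.4, 24.5 and 27.7 CPM with siCYP1B1, against 30.7, 30.1 and 36.3 CPM with scrambled siRNA (log2 -0.31, adjusted p = 0.00743). Of the 11 tested genes of the aryl hydrocarbon receptor pathway, Ahr and Cyp1b1 fell and the chaperone gene Hsp90ab1 (0.15) rose. The counts of both lists stand beside 10.4% of all tested genes called higher and 9.34% called lower.

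The estrogen receptors themselves gave little signal. Esr1, the gene of estrogen receptor alpha, had 15.8, 13.5 and 13.5 CPM in siCYP1B1 libraries, against 15.9, 15.8 and 15.6 CPM in scrambled libraries. One siCYP1B1 library overlapped the scrambled ones, and the difference did not pass (log2 -0.14, 95% interval -0.34 to 0.06, adjusted p = 0.353). Esr2 averaged 0.0793 CPM with siCYP1B1 and 0.133 CPM with scrambled siRNA, and Gper1 0.0395 CPM with siCYP1B1 and 0.00876 CPM with scrambled siRNA, both below the limit for testing. Of the 12 tested receptors and coregulators 3 rose and none fell. They were Esrra (0.41), which encodes the estrogen-related receptor alpha and not an estrogen receptor, and the coactivators Ncoa1 (0.24) and Ncoa2 (0.16), whose calls were lost when only the 6 libraries were fitted and when scrambled 16aOHE replicate 3 or siCYP1B1 16aOHE replicate 2 was left out, leaving 1 member. The call of Ncoa2 was also lost with median-of-ratios scaling and after quantile normalization. Of 15 tested estrogen receptor target genes, Stc2 (0.55) and the cyclin Ccnd1 (0.11) rose, and the IGF-binding protein Igfbp4 (-0.42) and the lipase Lpl (-0.28) fell. The call of Ccnd1 was lost in the 6-library fit and with median-of-ratios scaling. The counts of the receptor and target lists stand beside 10.4% of all tested genes called higher and 9.34% called lower.

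Across all genes the siRNA comparison under 16aOHE gave many small differences. At an adjusted p under 0.05 it called 2334 of 11827 genes (19.7%), of which 1229 (10.4%) were higher and 1105 (9.34%) lower with siCYP1B1. Among all tested genes, 3946 (33.4%) had 3 against 3 libraries that did not overlap, and so had 2233 of the 2334 called genes. The median size of a called change was 0.22 on the log2 scale, and the median change was 0.20 for the genes that rose and -0.26 for those that fell. The larger changes were falls. On the log2(CPM + 1) scale of the test, which understates the change of low genes, at least 1.5-fold was reached by 18 genes that rose and by 104 that fell. At least 2-fold was reached on that scale by 0 that rose and by 4 that fell, Angptl7, Igfbp5, C4b and Mpeg1. By the ratio of mean CPM itself, 9 of the called genes were at least 2-fold higher and 25 at least 2-fold lower. The count of calls was 1534 when only the 6 libraries were fitted, and 1539 without the library scrambled 16aOHE replicate 1.

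**Figure D1:**
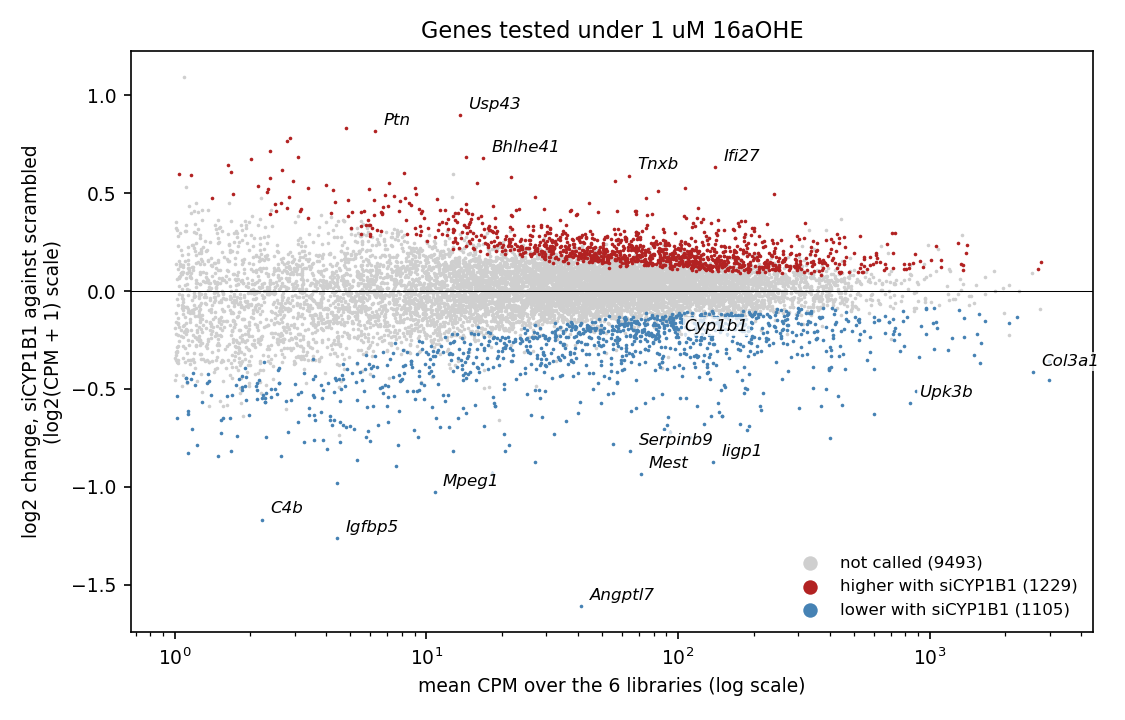
Each point is 1 of the 11827 tested genes, placed by its mean CPM over the 6 libraries (horizontal, log scale) and its log2 change, siCYP1B1 against scrambled, on the log2(CPM + 1) scale (vertical). Red points (1229) were called higher with siCYP1B1 and blue points (1105) lower, and the lower side reaches -1.61 (Angptl7) while the higher side of called genes reaches 0.90 (Usp43).

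The largest fall was in an angiopoietin-like secreted protein. Angptl7 (chromosome 4, 148495280 to 148500462, mm10) had 23.9, 15.4 and 20.9 CPM in siCYP1B1 libraries, against 60.6, 71.4 and 55.9 CPM in scrambled libraries. Its highest siCYP1B1 value was below its lowest scrambled value (log2 -1.61, SE 0.117, adjusted p = 5.84e-09). Mpeg1, a pore-forming protein of antibacterial defence known from macrophages, had 6.68, 7.40 and 6.21 CPM with siCYP1B1, against 14.7, 15.9 and 13.9 CPM with scrambled siRNA (-1.03, adjusted p = 1.59e-08). Mest, an imprinted gene expressed in mesoderm, had 50.1, 49.0 and 46.3 CPM with siCYP1B1, against 94.6, 94.4 and 91.7 CPM with scrambled siRNA (-0.94). In these genes the 2 groups lay far apart relative to their spread. Igfbp5, which binds insulin-like growth factors, had 1.99, 2.03 and 2.55 CPM with siCYP1B1, against 5.80, 7.33 and 6.84 CPM with scrambled siRNA (-1.26). C4b of the complement cascade had 0.853, 0.802 and 1.31 CPM with siCYP1B1, against 3.23, 3.87 and 3.25 CPM with scrambled siRNA (-1.17), and since C4a is a near copy its level is uncertain.

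The other named falls, all in genes averaging 5 CPM or more, were smaller and again without overlap between the groups. Serpinb9, an inhibitor of granzyme B, had 45.4, 49.4 and 44.8 CPM in siCYP1B1 libraries, against 84.3, 81.6 and 82.2 CPM in scrambled libraries (-0.82, adjusted p = 5.50e-10). The adhesion receptor gene Adgrb2 (-0.93), the transcription factor gene Gata5 (-0.89), the keratin Krt15 (-0.87), Plac8 (-0.87), the mitochondrial nucleotide kinase Nme4 (-0.82), the matrix gene Spon2 (-0.79) and Il18bp (-0.79), whose product binds interleukin 18, completed the list together with Iigp1, described with the interferon genes below. Relative to its mean, Gata5 varied most of these within the siCYP1B1 group, with 5.47, 3.11 and 6.89 CPM with siCYP1B1, against 9.51, 10.0 and 10.6 CPM with scrambled siRNA.

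The named rises were led by Usp43, a deubiquitinase gene (chromosome 11, 67854523 to 67922153, mm10), with 16.1, 19 and 18.9 CPM in siCYP1B1 libraries, against 9.30, 9.70 and 8.59 CPM in scrambled libraries (log2 0.90, SE 0.101, adjusted p = 2.27e-06). Ptn, a heparin-binding growth factor, had 8.75, 7.83 and 8.16 CPM with siCYP1B1, against 4.23, 4.32 and 4.19 CPM with scrambled siRNA (0.82). Ifi27, named for its induction by interferon, had 176, 166 and 173 CPM with siCYP1B1, against 108, 114 and 109 CPM with scrambled siRNA (0.63, adjusted p = 5.93e-09), the opposite direction to the called members of the interferon list. The nicotinic receptor subunit Chrna6 (0.68), the clock repressor Bhlhe41 (0.68), the sulfotransferase Chst1 (0.60), tenascin X (Tnxb, 0.59), Neurl4 (0.58), the integrin Itgb7 (0.56), the interleukin 15 receptor chain Il15ra (0.55), the stanniocalcin Stc2 (0.55) and the adipogenic nuclear receptor Pparg (0.53) also rose. In all 12 genes the lowest siCYP1B1 library was above the highest scrambled one.

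**Figure D2:**
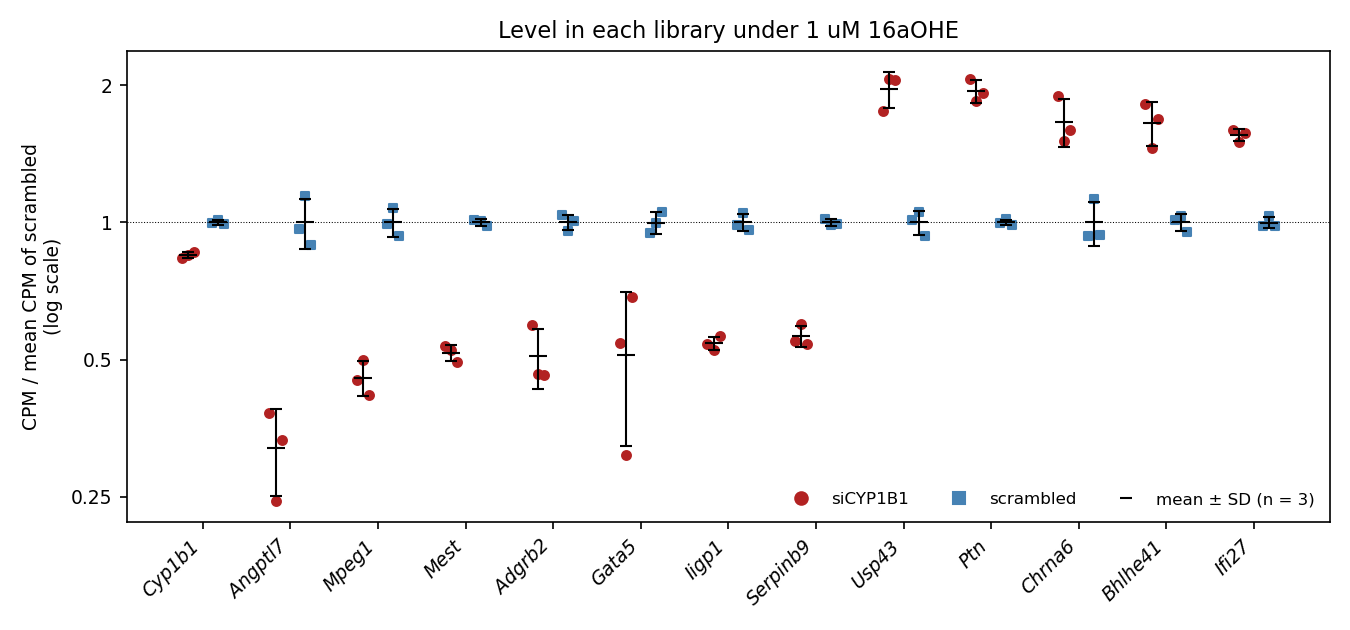
Points give the level of 13 genes in each library under 1 uM 16aOHE, divided by the gene's mean in the scrambled libraries (vertical, log scale), with siCYP1B1 (circles) left of scrambled (squares) and the mean ± SD of 3 libraries in black. Cyp1b1 lies slightly below 1 with siCYP1B1, Angptl7 lies lowest, and Usp43 and Ptn lie highest.

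Many interferon response genes were lower with siCYP1B1. Interferons signal through receptors and STAT transcription factors to elements in the promoters of antiviral genes, and interferon gamma is a known inducer of guanylate-binding proteins and immunity-related GTPases. Of 40 tested members 22 fell and none rose, against 9.34% of all tested genes called lower, and the median log2 change over the list was -0.167, against 0.01 over all tested genes. Stat2, a transcription factor of the type I response, had 130, 101 and 120 CPM in siCYP1B1 libraries, against 194, 173 and 178 CPM in scrambled libraries (log2 -0.64, SE 0.0789, adjusted p = 7.23e-06). Every siCYP1B1 library lay below every scrambled one. The immunity-related GTPase Iigp1 had 96.5, 93.9 and 100 CPM with siCYP1B1, against 176, 187 and 172 CPM with scrambled siRNA (-0.87, adjusted p = 2.15e-10). Irgm1 of the same GTPase group had 348, 355 and 371 CPM with siCYP1B1, against 543, 531 and 538 CPM with scrambled siRNA (-0.58). The chemokine Cxcl10 had 31.1, 29.2 and 33.9 CPM with siCYP1B1, against 44.9, 50.3 and 51.5 CPM with scrambled siRNA (-0.62), and the nucleic acid sensor Zbp1 fell by 0.60 on the log2 scale.

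Within that list the members did not move alike. Guanylate-binding proteins and GTPases fell (Gbp2 -0.59, Gbp3 -0.37, Igtp -0.32, Gbp7 -0.17), as did the antigen presentation genes H2-K1 (-0.22), H2-D1 (-0.19), B2m (-0.13) and Tap1 (-0.11), in small amounts. H2-K1 and H2-D1 share sequence with each other and with other class I genes, so their split is uncertain. Several antiviral effectors known from the type I interferon response did not pass. Ifit1 had 192, 186 and 213 CPM with siCYP1B1, against 191, 201 and 193 CPM with scrambled siRNA (log2 0.01, adjusted p = 0.882), and the groups overlapped. Isg15 had 279, 272 and 298 CPM with siCYP1B1, against 288, 315 and 319 CPM with scrambled siRNA (-0.12, adjusted p = 0.160). Ifit2 (0.01), Oasl1 (0.07), Rsad2 (0.15), Mx1 (-0.31) and Irf1 (-0.03) did not pass either, while Ifit3 did (-0.28, adjusted p = 0.00867). The number of members called lower ran from 18 to 24 when single libraries were left out, and it was 24 without the shallow library siCYP1B1 replicate 1.

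Promoters of the interferon list were read for the core of the interferon-stimulated response element, because the members that fell and those that did not could be compared there. The window ran from 250 bases before to 50 bases after the start (RefSeq, GRCm38.p6), and a match was GAAA, 2 bases of any kind and GAAA again on either strand, which reads TTTC, 2 bases and TTTC from the other strand, with overlapping matches allowed. A window was at hand for 9311 of the tested genes, of which 3.94% held a match. It was present in 10 of 17 list members called lower (58.8%) and in 6 of 13 not called (46.2%). The shares were 6.09% among genes called lower that are not on the list and 2.99% among genes called higher. The motif was therefore common on the list whether or not a member fell. Irgm1, Isg15 and Ifit1 hold more than 1 match, and only 1 match per gene is in capitals below. The windows are from 4 members that fell and 2 that did not pass.
Stat2 (fell; chr10:128270268-128270293, plus strand): caccctggTTTCAGTTTCctttccct
Cxcl10 (fell; chr5:92349085-92349110, minus strand): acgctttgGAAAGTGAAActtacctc
Gbp2 (fell; chr3:142620596-142620621, plus strand): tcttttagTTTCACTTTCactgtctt
Irgm1 (fell; chr11:48871427-48871452, minus strand): aagaaataGAAACCGAAActgattct
Isg15 (not called; chr4:156200867-156200892, minus strand): aggaaaccGAAACAGAAAatagctct
Ifit1 (not called; chr19:34640777-34640802, plus strand): ggcttcagTTTCACTTTCcagtctca

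Other inflammatory genes moved less uniformly. Among all tested genes, 10.4% were called higher and 9.34% lower. Of 21 tested NF-kB and inflammatory genes 4 fell and 2 rose. The falls were in the prostaglandin synthase Ptgs2 (-0.43), the feedback inhibitor Tnfaip3 (-0.37), the macrophage growth factor Csf1 (-0.30) and the chemokine Cx3cl1 (-0.23), and the rises in Sod2 (0.17) and Nfkb1 (0.13). Of 12 tested genes on the complement list 5 fell and none rose, among them the protease gene C1s1 (-0.64) and C2 (-0.32) beside C4b. One of the 5 was Mpeg1, a pore-forming protein that is not a complement component, so 4 of the other 11 fell. C1s1 had 2.99, 3.25 and 2.87 CPM in siCYP1B1 libraries, against 4.79, 5.51 and 5.56 CPM in scrambled libraries, with no overlap. Of 13 tested serpins 4 fell and 3 rose, with Serpinf1 at -0.71, Serpini1 at -0.47 and Serpinb10 at 0.72 beside Serpinb9.

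Genes of the extracellular matrix fell in large part. The extracellular matrix is built of collagens and of glycoproteins, proteoglycans and the enzymes that cross-link and cleave them. Of 30 tested matrix enzymes, proteoglycans and glycoproteins on the list 21 fell and none rose, against 9.34% of all tested genes called lower. The median log2 change was -0.338, against 0.01 over all tested genes. Tenascin X (Tnxb), which is not on that list, rose (0.59). Decorin (Dcn), a small proteoglycan that binds collagen, had 247, 227 and 249 CPM in siCYP1B1 libraries, against 343, 383 and 371 CPM in scrambled libraries (-0.60, adjusted p = 6.81e-07). Fibronectin (Fn1) had 2670, 2579 and 2268 CPM with siCYP1B1, against 3494, 3658 and 3160 CPM with scrambled siRNA (-0.46). The collagen cross-linking enzyme Loxl1 had 3.77, 3.54 and 3.42 CPM with siCYP1B1, against 5.73, 7.46 and 6.07 CPM with scrambled siRNA (-0.69). In each of these genes every siCYP1B1 library lay below every scrambled one. The metalloproteinase Mmp19 (-0.84), the hyaluronan synthase Has2 (-0.74) and tenascin C (Tnc, -0.66) also fell, at levels of 0.519 to 3.16 CPM in single libraries. Of 19 tested collagen chains 9 fell and 2 rose. Col3a1 had 2147, 2182 and 2278 CPM with siCYP1B1, against 2874, 2932 and 3000 CPM with scrambled siRNA (-0.41, adjusted p = 2.48e-08). Col11a1 (-0.62), Col6a2 (-0.48), Col16a1 (-0.44) and Col1a2 (-0.40) also fell, whereas Col12a1 (0.35) and the basement membrane chain Col4a1 (0.13) rose.

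Of the genes of signalling pathways tied to the matrix, a minority passed. Of 20 tested TGF-beta ligands, receptors and targets 8 fell and 1 rose, and 5 fell without scrambled 16aOHE replicate 1 or replicate 3. The ligand Tgfb3 had 124, 129 and 128 CPM in siCYP1B1 libraries, against 174, 184 and 180 CPM in scrambled libraries (-0.49, adjusted p = 2.67e-09). The TGF-beta binding protein Ltbp2 fell by 0.77 on the log2 scale, and the 1 rise was in the secreted target Tgfbi (0.62), which had 4.41, 2.92 and 3.06 CPM with siCYP1B1, against 1.87, 2.37 and 1.45 CPM with scrambled siRNA. The call of Tgfbi was lost without siCYP1B1 replicate 1. Of 19 tested CCN and YAP target genes 8 fell and none rose, including the matricellular genes Ctgf (-0.64), Cyr61 (-0.52) and Wisp1 (-0.45) and the ectonucleotidase Nt5e (-0.84). Of 18 tested BMP pathway genes 3 fell, against 9.34% of all tested genes, namely the ligands Gdf6 (-0.73) and Bmp4 (-0.32) and the receptor Bmpr1a (-0.13), and the calls of Bmp4 and Bmpr1a were lost in the 6-library fit and without scrambled 16aOHE replicate 2.

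Markers of several cell types fell together with the matrix genes. Among all tested genes, 9.34% were called lower and the median log2 change was 0.01. Of 12 tested mesothelial and epithelial markers 9 fell and none rose (median log2 change -0.356). The uroplakin Upk3b had 656, 666 and 702 CPM in siCYP1B1 libraries, against 979, 1016 and 1014 CPM in scrambled libraries (-0.57, adjusted p = 1.20e-09). Lrrn4 had 69.4, 66.3 and 65.0 CPM with siCYP1B1, against 104, 111 and 114 CPM with scrambled siRNA (-0.71), and the mesothelial transcription factor gene Wt1 fell by 0.41 on the log2 scale. The keratins Krt18 (-0.81) and Krt14 (-0.53) fell, while Krt19 did not pass (-0.03, adjusted p = 0.740). The summed level of all 15 markers in the table did not overlap between the groups, at 4342 to 4529 CPM in siCYP1B1 libraries and 5551 to 5763 CPM in scrambled libraries. In bulk samples, fewer cells of a type and less RNA per cell cannot be told apart. Of 8 tested fibroblast and pericyte markers 5 fell, 3 of them also counted above as matrix or collagen genes, and the summed level of the 13 in the table was 4858 to 5054 CPM in siCYP1B1 libraries and 6088 to 6495 CPM in scrambled libraries. The part of cell composition in the falls of the matrix genes was not tested.

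Endothelial and smooth muscle markers moved in part. Among all tested genes, 10.4% were called higher and 9.34% lower. Of 9 tested endothelial markers 3 fell and none rose. Cd34, a surface protein also found on fibroblasts and progenitor cells, had 78.8, 70.3 and 80.4 CPM with siCYP1B1, against 128, 136 and 131 CPM with scrambled siRNA (-0.78, adjusted p = 4.35e-08). Esam (-0.59) and the VEGF receptor Flt1 (-0.24) fell as well, and the lymphatic receptor Flt4 on the angiopoietin and VEGF list fell by 0.57 on the log2 scale. Kdr, the main VEGF receptor, averaged 5.17 CPM with siCYP1B1 and 5.24 CPM with scrambled siRNA and did not pass. On that list of 14 tested genes 5 fell (3 without scrambled 16aOHE replicate 2) and 1, Angptl4 (0.32), rose. The call of Angptl4 was lost when any 1 of 5 of the 6 libraries was left out. Of 7 tested smooth muscle markers Acta2 (-0.50) and Smtn (-0.21) fell. The summed endothelial level was 237 to 261 CPM in siCYP1B1 libraries and 325 to 337 CPM in scrambled libraries, and neither of the 2 tested leukocyte markers passed, with summed levels of 34.2 to 37.3 CPM in siCYP1B1 libraries and 32.8 to 35.4 CPM in scrambled libraries.

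On the higher side, genes of mitochondrial respiration rose most often. The respiratory chain passes electrons through complexes I to IV and the ATP synthase uses the resulting proton gradient. Of 35 tested nuclear-encoded subunits on the list 20 rose and none fell, against 10.4% of all tested genes called higher. The rises were small (median log2 change 0.151). Atp5g2, an ATP synthase subunit gene that is not on the list, fell (-0.51, limma adjusted p = 0.0381). Uqcrc1 of complex III had 211, 222 and 223 CPM in siCYP1B1 libraries, against 165, 179 and 181 CPM in scrambled libraries (0.32, adjusted p = 9.15e-06). Atp5a1 of the ATP synthase had 792, 807 and 816 CPM with siCYP1B1, against 625, 656 and 685 CPM with scrambled siRNA (0.30). Ndufb5 of complex I (0.31) and cytochrome c1 (Cyc1, 0.29) rose alike. The number of members that rose was 14 to 20 with single libraries left out, and 13 without both replicate-1 libraries. Esrra, which is known to drive genes of respiration, had 76.9, 80.9 and 75.9 CPM with siCYP1B1, against 56.0, 59.6 and 59.7 CPM with scrambled siRNA (0.41, adjusted p = 2.05e-05), with no overlap. Of 19 tested ribosomal protein genes on a list read as a measure of RNA quality, 6 rose and none fell (median log2 change 0.072). The rises included Rps2 (0.26) and Rps9 (0.26). Rps16 (-0.50) and Rpl15 (-0.19), ribosomal protein genes that are not on that list, were called lower. The levels of ribosomal protein genes are uncertain because processed copies of these genes can take up their reads. The 3 tested nuclear-retained RNAs had a median change of 0.355 and none passed. The part of RNA quality in these rises was not tested.

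Part of the genes of cell division rose, by small amounts. Of 35 tested G2/M and mitosis genes 14 rose and none fell (median log2 change 0.10). Cdc20, an activator of the anaphase-promoting complex, had 261, 262 and 264 CPM in siCYP1B1 libraries, against 214, 232 and 230 CPM in scrambled libraries (0.22, adjusted p = 0.000280). The separase Espl1 (0.23), the checkpoint kinase Bub1b (0.21) and the survivin gene Birc5 (0.20) rose too. The number that rose was 8 with median-of-ratios scaling, 8 in the 6-library fit, 8 without scrambled 16aOHE replicate 2 and 9 without siCYP1B1 16aOHE replicate 1. Of 40 tested G1/S and replication genes 7 rose and 1 fell, against 10.4% of all tested genes called higher, and 3 rose in the 6-library fit. They were led by the cyclin Ccne1 (0.25), Mcm5 (0.16) and the ribonucleotide reductase subunit Rrm2 (0.16), and 4 rose without scrambled 16aOHE replicate 1 or siCYP1B1 16aOHE replicate 3. Of 22 tested p53 targets 6 rose and none fell, including Sesn2 (0.31), Bbc3 (0.25) and Bax (0.25).

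Stress and nutrient genes rose in part. Their counts stand beside 10.4% of all tested genes called higher and 9.34% called lower. ATF4 is the transcription factor of the amino acid and integrated stress response, and its targets take part in serine and asparagine synthesis. Of 30 tested ATF4 and endoplasmic reticulum stress genes 12 rose and 5 fell. The rises included Atf5, a stress-induced transcription factor (145, 133 and 134 CPM with siCYP1B1, against 106, 98.8 and 101 CPM with scrambled siRNA, log2 0.42), the mitochondrial folate enzymes Aldh1l2 (0.41) and Shmt2 (0.35), and Asns (0.26). The falls were in genes of the folding and degradation arm, such as Dnajb9 (-0.19) and Edem1 (-0.18), and they numbered 1 without siCYP1B1 16aOHE replicate 1 or scrambled 16aOHE replicate 2, 2 without scrambled replicate 3 and 3 without scrambled replicate 1. Of 27 tested NRF2, glutathione and NADPH genes 8 rose and none fell, including Hmox1 (0.25) and the ferritin chain Fth1 (0.25). Of 20 tested glycolysis genes 5 rose and none fell, including Pfkp (0.27) and the hexokinase Hk1 (0.24), and 3 rose without scrambled 16aOHE replicate 2 or siCYP1B1 16aOHE replicate 3. Of 18 tested hypoxia genes 3 rose and 3 fell, with Ddit4 at 0.32, Ero1l at 0.16 and Bhlhe40 at -0.20. The 3 falls among the hypoxia genes numbered 0 without scrambled replicate 1 or siCYP1B1 replicate 2, and 1 without scrambled replicate 3 or siCYP1B1 replicate 1.

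Lipid, clock and metal genes were mixed, and their counts stand beside the 10.4% of all tested genes called higher and the 9.34% called lower. Of 24 tested cholesterol synthesis genes 6 fell and 1 rose, with the sterol reductase Tm7sf2 at -0.55 and Idi1 at -0.23. Of 24 tested fatty acid genes 5 rose and 2 fell, with the carnitine transferase Cpt1a at 0.35, the lipid droplet protein Plin2 at 0.21 and the desaturase Fads2 at -0.26, and the rises numbered 2 or 3 without scrambled replicate 1, siCYP1B1 replicate 1 or siCYP1B1 replicate 3. Of 16 tested clock genes 4 rose and 2 fell, with Bhlhe41 at 0.68, Dbp at 0.40 and Nfil3 at -0.43, and 2 rose without siCYP1B1 replicate 1 or scrambled replicate 3. Of 11 tested metallothioneins and zinc transporters 2 rose and 4 fell, with the metallothionein Mt1 at 0.34 and the zinc importer Slc39a10 at -0.24, and 1 or 2 fell without any 1 of siCYP1B1 replicates 1 and 3 and scrambled replicates 2 and 3. Of 16 tested genes of the IGF axis 2 rose and 3 fell, of 20 immediate early genes none rose and 3 fell (5 without siCYP1B1 replicate 1, 1 without scrambled replicate 1), and of 31 proteasome subunits 1 rose and none fell (6 rose without siCYP1B1 replicate 1, and 0 in the 6-library fit and with either other scaling). Of 15 tested genes of RNA interference and microRNA function 2 rose and 1 fell. Ago2, which cleaves siRNA targets, had 162, 192 and 152 CPM in siCYP1B1 libraries, against 136, 135 and 135 CPM in scrambled libraries (0.31, adjusted p = 0.00316), and Tlr3, a sensor of double-stranded RNA, fell by 0.21 on the log2 scale. Over all 37 lists, 246 of 670 tested members (36.7%) were called, 111 higher and 135 lower, against 19.7% of all tested genes.

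**Figure D3:**
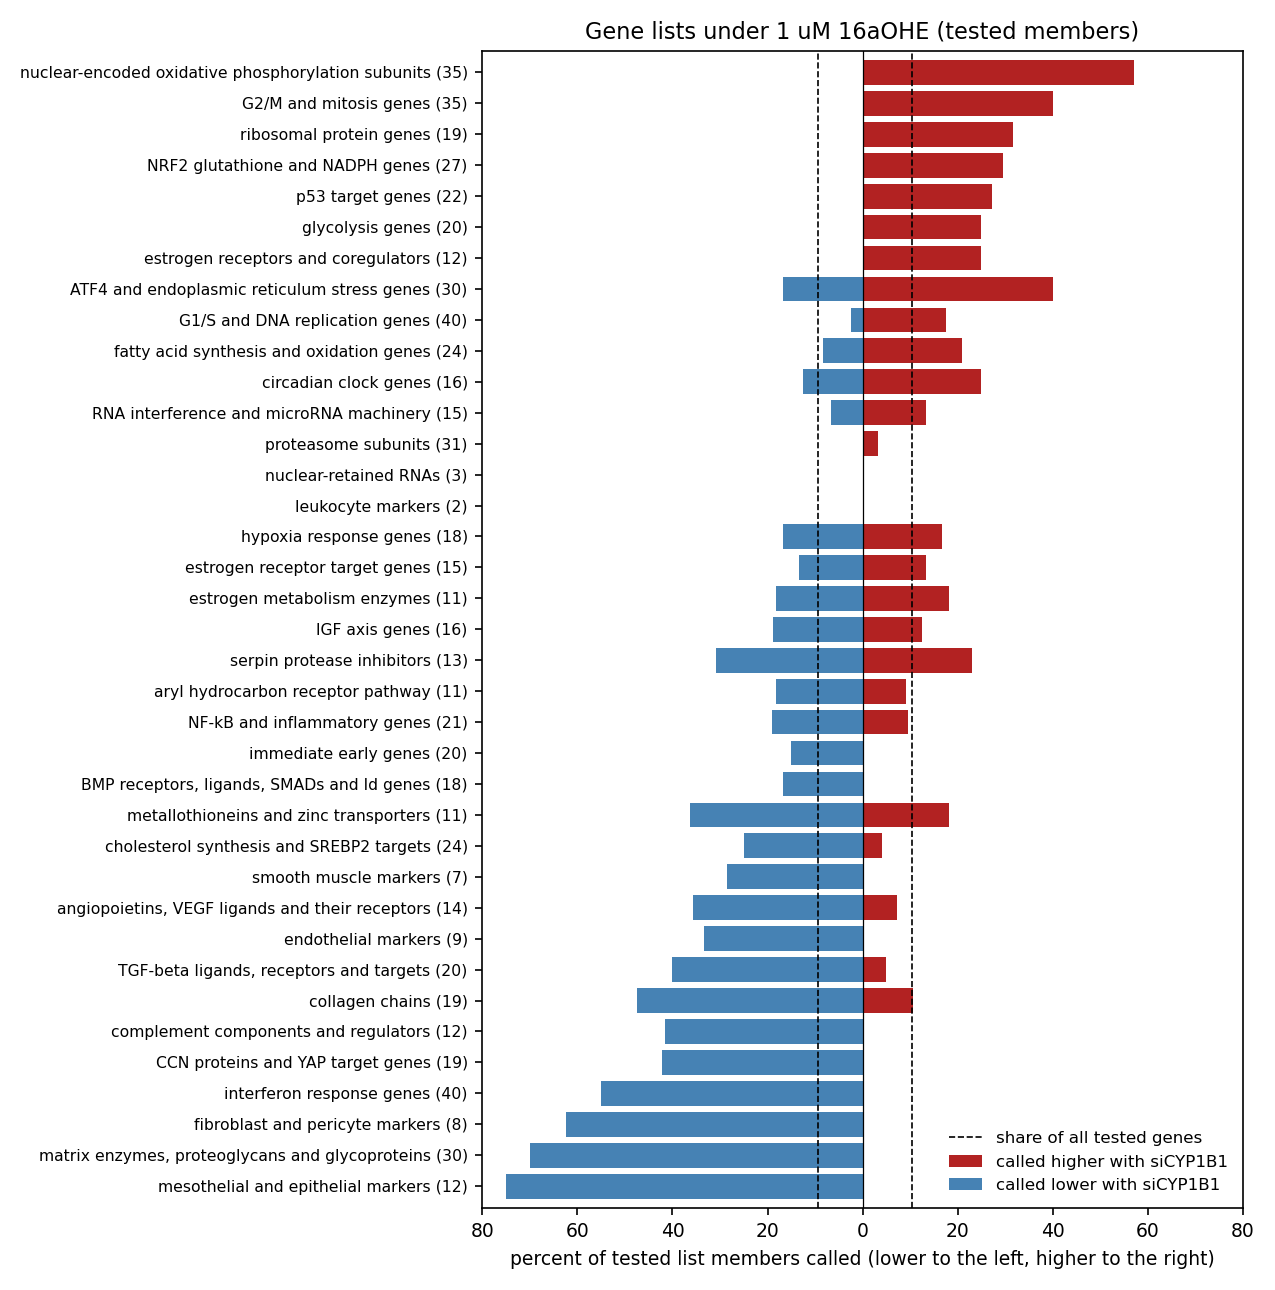
Bars give, for each of 37 gene lists, the percentage of tested members (number in brackets) called higher (red, to the right) or lower (blue, to the left) with siCYP1B1 under 1 uM 16aOHE. Dashed lines mark the shares of all tested genes, 10.4% higher and 9.34% lower. The mesothelial (9 of 12), matrix (21 of 30), fibroblast (5 of 8) and interferon (22 of 40) lists reach farthest to the left, and respiratory chain subunits (20 of 35) farthest to the right.

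The siRNA difference was then read beside its counterparts without 16aOHE, in libraries that are not shared. In vehicle 2436 genes (20.6%) and under E2 2510 genes (21.2%) were called at the same threshold. Of the 2334 genes called under 16aOHE, 1472 (63.1%) were called in the same direction in vehicle, where they made up 60.4% of the calls. Under E2 1532 (65.6%) were called in the same direction, or 61.0% of the E2 calls. All 3 arms shared 1212 genes, 553 higher and 659 lower. The sign was the same for 97.0% of the 2334 genes in vehicle and for 98.3% under E2. Angptl7 changed by -1.61 under 16aOHE, -1.84 in vehicle and -1.92 under E2, and Usp43 by 0.90, 1.11 and 1.04 in the same order of arms. Stat2 changed by -0.64, -0.58 and -0.60, and Cyp1b1 by -0.24, -0.18 and -0.19. The interferon list had 22 members lower under 16aOHE, 21 in vehicle and 24 under E2. The matrix list had 21, 17 and 16 members lower in the same order of arms, and the respiratory subunits 20, 24 and 19 members higher. Some other lists differed more. In that order of arms the cholesterol list had 6, 8 and 16 members lower, and the glycolysis list 5, 11 and 10 members higher. The immediate early list had 0, 1 and 5 members higher. The list counts were not tested for a difference between arms.

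Tests of the difference between arms gave no gene that passed in the model of all 18 libraries. For the siRNA difference under 16aOHE minus that in vehicle, 0 of 11827 genes (0%) passed in limma, 597 had an unadjusted p under 0.05, and the smallest adjusted p was 0.0653. With only the 4 groups of that contrast fitted, 12 genes passed, all with a more negative siRNA difference under 16aOHE, led by Rps16 (-1.31) and Atp5g2 (-1.15). For 16aOHE minus E2, 0 genes (0%) passed, 501 had an unadjusted p under 0.05, and the smallest adjusted p was 0.387. The 536 genes called only under 16aOHE are therefore, in that model, not shown to differ from the other arms. Among the named genes, Stc2 had 19.1, 18.7 and 19.3 CPM with siCYP1B1 under 16aOHE, against 11.5, 14.8 and 12 CPM with scrambled siRNA. Its change was 0.55 under 16aOHE, 1.01 in vehicle and 0.30 under E2, and the difference of 16aOHE minus vehicle had an unadjusted p of 0.00264 and an adjusted p of 0.678.

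**Figure D4:**
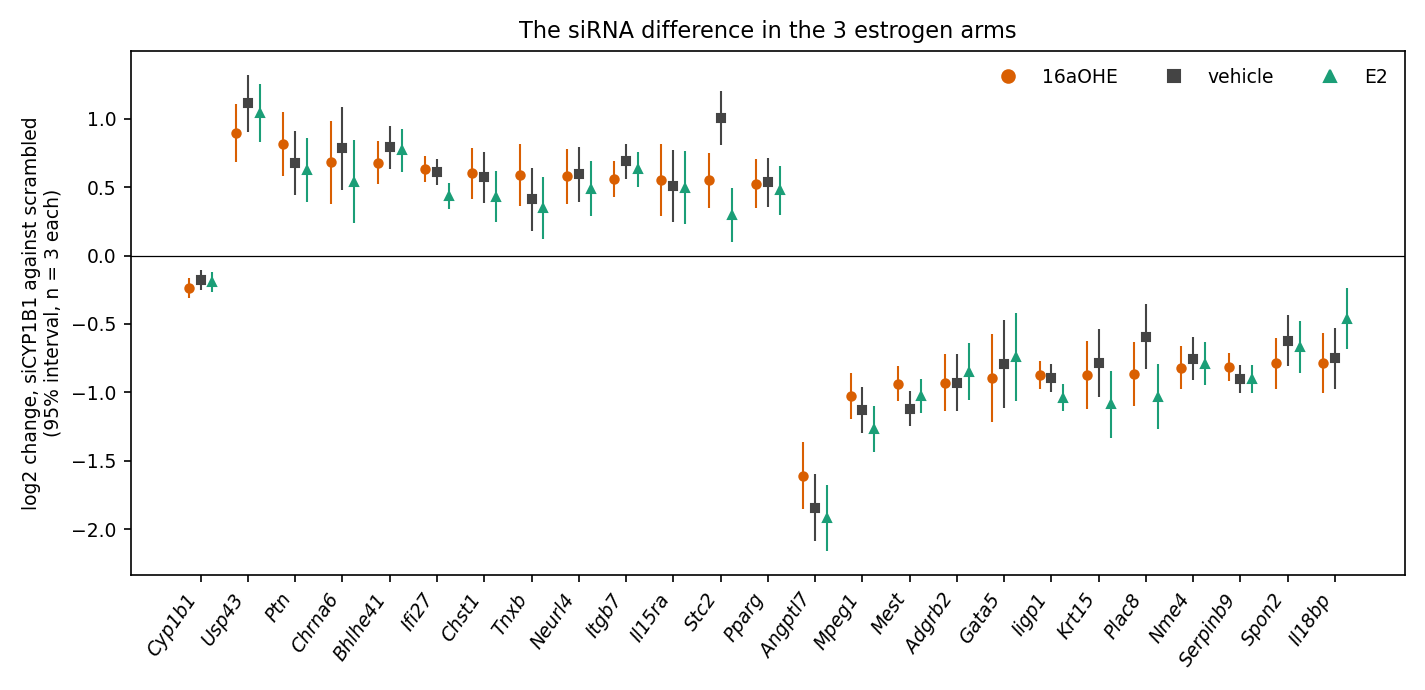
Points give the log2 change, siCYP1B1 against scrambled (vertical), of Cyp1b1 and of the 12 named rises and 12 named falls under 16aOHE, in vehicle and under E2, with 95% intervals from the fit (n = 3 libraries in each group). The direction of each gene is the same in all 3 arms, and the intervals of most genes overlap between arms.

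A sequence feature was shared by part of the genes that fell. The 7-base string AAAGTCA was taken up because earlier results of these data had shown it among genes lower with this siRNA, so its count here is not independent of them. It was searched in the longest annotated 3′ UTR of 11378 of the tested genes (GENCODE vM21, GRCm38). It lay in 27.7% of the 1069 genes called lower and in 7.91% of the 1214 called higher, against 15.3% of those not called and 15.7% of all genes searched. Among all 16384 strings of 7 bases it had the largest gap between the 2 shares (19.8 percentage points). The next largest gaps were those of AATATTT (15.9 points) and AAATATT (15.5 points). Its reverse complement TGACTTT lay in 23.1% of the genes called lower, 17.1% of those called higher and 20.8% of those not called. The UTRs of genes called lower were longer, with a median of 1489 bases against 972 bases for genes called higher, and longer UTRs hold more matches. Within 4 bands of UTR length, each with a like number of genes, the shares among genes called lower, genes not called and genes called higher were 8.77%, 2.33% and 1.10% in the shortest band. They were 15.6%, 8.14% and 3.64% in the second, 27.5%, 16.2% and 9.45% in the third, and 47.9%, 34.7% and 21.9% in the longest, so the order was the same in each band.

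The change also differed with the number of matches. The median log2 change under 16aOHE was -0.068 for the 54 genes with 3 or more matches, -0.056 for the 265 with 2, -0.025 for the 1464 with 1, and 0.023 for the 9595 with none. In vehicle the medians were -0.064, -0.066, -0.022 and 0.037 in the same order, and under E2 -0.085, -0.065, -0.022 and 0.038. These medians were not split by UTR length, and the part of length in them was not tested. Most falls were in genes without the string, which lay in 296 of the 1069 genes called lower that were searched. Of the 12 largest named falls it was found in 2, Serpinb9 and Iigp1, and not in the other 10, which include Angptl7, Mpeg1 and Mest. It was in 3 of 22 interferon members called lower, in 6 of 21 matrix members, in 0 of 9 mesothelial members and in all 4 zinc transporters that fell. These counts stand beside 27.7% of all searched genes called lower. On the list with the zinc transporters, the falls numbered 1 when only the 6 libraries were fitted. Cyp1b1 itself holds 2 copies of the string. The windows below, with the string in capitals and 8 bases on either side, are from Cyp1b1, Serpinb9 and Itgb8, an integrin gene with 10.9, 14.3 and 12.7 CPM with siCYP1B1, against 19.3, 25.8 and 18.3 CPM with scrambled siRNA.
Cyp1b1, first of 2 matches (chr17:79709516-79709538, minus strand): tggaccatAAAGTCAgttgtccc
Cyp1b1, second match (chr17:79708578-79708600, minus strand): ttgtttttAAAGTCAgaatctga
Serpinb9, first of 2 matches (chr13:33016447-33016469, plus strand): ttgtgtatAAAGTCAataattta
Serpinb9, second match (chr13:33016752-33016774, plus strand): tcactactAAAGTCAagtataga
Itgb8, single match (chr12:119163030-119163052, minus strand): tataatatAAAGTCAcaggagaa
The bases around the string differ between these windows. Neither siRNA sequence is given in the sources used here, and whether either siRNA pairs with the string was not tested.

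**Figure D5:**
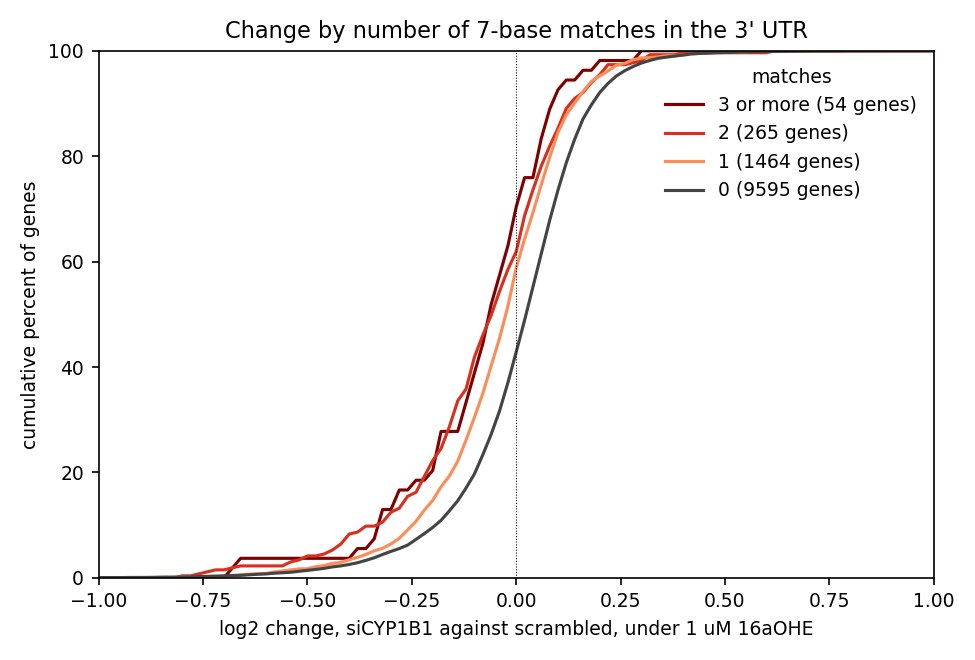
Lines give the cumulative percentage of genes (vertical) up to each log2 change, siCYP1B1 against scrambled, under 1 uM 16aOHE (horizontal), for genes with 3 or more (54), 2 (265), 1 (1464) or no (9595) matches to the 7-base string in the 3′ UTR. Around the middle of the range the lines for genes with matches lie to the left of the line for genes without, with medians of -0.068, -0.056, -0.025 and 0.023, and in the tails the lines cross. The genes were not split by UTR length.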

How the data were processed

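RNA sequencing of 18 libraries in 6 groups of 3 was analysed, of which 6 libraries carry the main comparison. The authors deposited 1 table of CPM for 15288 genes, each value raised by 1e-04. Per the submitters' processing notes, TopHat2, Partek and the mm10 build were used, with no version, annotation or filter given in the sources used here. Low values fell on steps worth 1 read, from which depth was estimated at 14.1 to 38.5 reads per CPM. Because only 93.8% to 95.1% of values below 50 reads came out whole within 0.1 reads, no count test was run. Columns were mapped to samples by title, with 0 sample columns left over. Positions are the table's, 1-based, with the listed stop reduced by 1.

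Values were tested as log2(CPM + 1), which understates changes near 1 CPM. A model with 1 mean per group was fitted to all 18 libraries (12 residual degrees of freedom) with limma 3.58.1 in R 4.3.3, with trend, and p-values were adjusted by Benjamini-Hochberg over the 11827 genes within a contrast, at 0.05. Adjusted p-values are from limma throughout. The code was tested on simulated data. Alternatives were other pseudocounts, filters, scalings and fits, and leaving out libraries. Under 16aOHE, chi-square per degree of freedom between libraries of 1 group was 3.52 to 7.70, above sampling noise, and no 2 of the 6 columns were identical.

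Named genes were Cyp1b1 and the estrogen receptors; the 12 called genes with the largest log2 change in each direction among those with a mean of at least 5 CPM and no overlap between groups; up to 4 called members of each list with the largest change; and called genes of the contrasts between arms, of which there were none. Predicted genes, small RNAs and pseudogenes were left out. Genes outside the rule, among them list members that did not pass, Itgb8 and the 2-fold changes of low level, were chosen after their values were seen. The members and lists were chosen with earlier results of these data known. Some genes are not reported here.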

Additional observations from a re-analysis of the deposited data

How the results depend on the processing

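The count of genes called under 16aOHE was 2334 and stayed within 1.5 times of that under most alternatives. It was 1534 when only the groups of the contrast were fitted, and 1539 to 2173 with single libraries left out, lowest without scrambled 16aOHE replicate 1. It was 1500 without siCYP1B1 16aOHE replicate 1 and scrambled 16aOHE replicate 1 together, an alternative chosen after seeing the data. Of the calls, 45.2% were higher with median-of-ratios factors and 48.4% after quantile normalization, against 52.7% with the deposited scaling. For the siRNA difference under 16aOHE minus vehicle, 12 genes passed when only the groups of the contrast were fitted, all more negative under 16aOHE. They included Rps16, Atp5g2, Lsm7, Rpl13, Rps6, Atp5k, Rpl41, Rplp1, Psmb5, Ppia and Rpl15, many of them from families with processed copies. One gene passed in eBayes without trend (Psmb5), and 0 to 1 with single libraries left out, the 1 being Rps16 without siCYP1B1 vehicle replicate 3. For 16aOHE minus E2 the count was 0 under every alternative run. Cyp1b1 stayed called, between -0.26 and -0.22, and called list members numbered 184 to 246. Of 137 named genes with a value, 102 kept their direction and call in all alternatives in which they were tested, 35 lost or gained the call in at least 1, and 0 reversed. With the filter of a mean of at least 5 CPM, only 122 of them were tested. The 7-base string lay in 26.1% to 31.1% of genes called lower and 7.30% to 9.28% of those called higher. Causes of these shifts were not tested. No paired analysis was possible because the labels carry no replicate numbers, and numbers here only name libraries. Depth limits genes near 1 CPM, where a library holds 14.1 to 38.5 reads per gene.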

Other observations

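Under the call rule of the report, 6 genes were called under 16aOHE and called in the opposite direction in vehicle or under E2, and they were singled out after their values were seen. Rps16 (log2 -0.50 under 16aOHE, 0.80 in vehicle), Atp5g2 (-0.51 and 0.64), Lsm7 (-0.50 and 0.59) and Rpl15 (-0.19 and 0.18) were lower with siCYP1B1 under 16aOHE and higher in vehicle. Ier3 was lower under 16aOHE (-0.18) and higher under E2 (0.21), and Mrpl44 higher under 16aOHE (0.21) and lower under E2 (-0.20). In the limma model of all 18 libraries no difference between arms passed for any of the 6, with the smallest adjusted p at 0.0807 for Rps16. Ribosomal protein genes share reads with processed copies, so their levels are uncertain.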
